A study of Mus musculus with 16 samples.

Results

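The barcodes described here are those of the dentate gyrus (DG) Multiome libraries in which 2.787% or more of the RNA molecules came from mitochondrial genes, the limit above which the study set nuclei aside. A barcode marks 1 droplet, and its RNA molecules are counted as unique molecular identifiers (UMIs). Members were barcodes with more than 500 UMIs, more than 250 genes and a share of UMIs on the 13 genes named mt-* at or above that limit. There were 9587 of them among 33484 barcodes over the same UMI and gene minimums, and the other 23897 served as low-mitochondrial barcodes of the same mice. Members were thus chosen by their mitochondrial share, total UMIs and number of genes, and these values are only described.

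The libraries came from 4 wild-type mice (WT, genotype VV) and 4 mice homozygous for the V321L substitution in Nrg1 (genotype LL), with 2 females and 2 males of each genotype and 1 library per mouse. The ages of these mice are not given in the sources used here. The DG was microdissected, frozen and kept in the freezer overnight before nuclei were isolated with a commercial kit, and polyadenylated RNA and accessible chromatin were read from the same droplets. No date or batch of preparation is given in the sources used here, so the preparation of a library and the genotype of its mouse cannot be told apart in any comparison between genotypes. Mice are named below by genotype, sex and number (WT F1 to V321L M2).

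Mitochondrial messenger RNAs are made and kept in mitochondria, outside the nucleus. In a preparation of nuclei they reach a droplet with cytoplasm that stays on a nucleus, with a piece of cell, or free in the liquid, which is why their share is commonly used as a filter. The DG is built mainly from granule cells (GCs), small excitatory neurons in a dense layer, with astrocytes, oligodendrocytes, interneurons and vessels around them. The Multiome assay gives a further readout that the mitochondrial limit did not use, the count of chromatin fragments cut by a transposase (ATAC counts), which come from nuclear DNA. The study's filter was applied to barcodes that the counting software had already called cells, a list that was not used here, so some of the barcodes above the limit may never have reached that filter.

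Total RNA counts were 4326426 to 14624265 UMIs in the WT libraries and 15505354 to 23582057 in the V321L libraries, and ATAC counts were 6580616 to 25552769 over all 8. Outside the mitochondrial genes, the high-mitochondrial barcodes held 36571 to 120313 UMIs per WT mouse and 1017907 to 5469435 per V321L mouse, so single genes were measured far less precisely in WT. Free RNA was read from barcodes with at most 100 UMIs. Its mitochondrial share was 6.60% to 10.3% in WT libraries and 13.4% to 20.5% in those of V321L mice, above the limit in each of the 8. Between 3.25% and 6.56% of the high-mitochondrial barcodes of a library carried a barcode sequence also found over the minimums in another library, against 3.14% to 4.21% of the low-mitochondrial ones. No doublet caller was used. None of the WT members and between 14 and 49 members per V321L mouse lay above the study's upper UMI limit.

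High-mitochondrial barcodes were rare in WT and frequent in V321L libraries. They were 100 of 2500 barcodes in WT F1 (4.00%), 46 of 5839 in F2 (0.788%), 61 of 2418 in M1 (2.52%) and 123 of 3182 in M2 (3.87%). In V321L they were 2673 of 5712 in F1 (46.8%), 850 of 3579 in F2 (23.7%), 1423 of 3526 in M1 (40.4%) and 4311 of 6728 in M2 (64.1%). The lowest V321L library lay above the highest WT library. The means were 2.79% ± 1.49 in WT and 43.7% ± 16.7 in V321L (SD, n = 4 each), a difference of 41.0 percentage points (two-sided exact permutation test, p = 0.0286, the smallest that 4 against 4 mice allow). With a WT library left out the difference was 40.3 to 41.4 points and the exact p was 0.0571. These are shares of barcodes and not of nuclei. Members with at least 500 ATAC counts, the minimum used here for a barcode with a nucleus, were far fewer. They made up 0.343% to 1.73% of all barcodes over the UMI and gene minimums in WT libraries and 3.49% to 10.2% in V321L libraries. The genotypes were again separate, and the exact permutation test gave the smallest p that 4 against 4 mice allow (p = 0.0286). The same count was required in libraries with different peak sets, and the part of that in this difference was not tested.

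The barcodes nearest to the limit had shares of 2.79% to 2.82% on the inner side and 2.71% to 2.79% on the outer side. Within 0.5 percentage points of the limit there were 9 to 18 members per WT mouse and 51 to 256 per V321L mouse, and 12 to 34 and 75 to 303 barcodes just outside it. Most members were not near it. The median share among members was 8.20%, 3.97%, 4.47% and 6.07% in WT F1, F2, M1 and M2 and 11.4%, 14.9%, 17.6% and 13.02% in the corresponding V321L mice. Shares of 20% or more were found in 0 to 3 barcodes per WT mouse and in 24.6% to 46.1% of the members of a V321L mouse. The low-mitochondrial barcodes also differed in level, with a median share of 0.068% to 0.131% in WT and of 0.405% to 1.24% in V321L.

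Members were small. Their median was 775, 677.5, 899 and 815 UMIs in WT F1, F2, M1 and M2 and 827, 819, 965 and 848 in V321L, against 1101 to 1972.5 and 2524 to 3973 in the low-mitochondrial barcodes. All mitochondrial UMIs included, they held 0.263% to 1.42% of the RNA of a WT library and 6.52% to 26.4% of that of a V321L library. At an equal depth of 500 non-mitochondrial UMIs they showed slightly more genes, 394 ± 23.8 against 384.8 ± 21.5 (SD, n = 8 mice), and all 8 mice had more. With a limit of 5% the difference was 5.25 genes. Since members were chosen partly by their number of genes, these values carry no test.

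Members had lower median ATAC counts than the other barcodes of their mouse. The median was 80.5 ATAC counts in peaks per barcode in WT F1, 344 in F2, 1292 in M1 and 233 in M2, against 3368, 1150, 4667 and 2599 in the low-mitochondrial barcodes of the same mice. In V321L it was 33 in F1, 8 in F2, 28 in M1 and 36 in M2, against 1719, 5877, 9731 and 1558. The members lay below the other barcodes in 8 of 8 mice. The log2 ratio of medians, with 1 count added, averaged −5.15 (two-sided exact sign-flip test, p = 0.00781, the smallest that 8 mice allow). Each library had its own set of peaks, from 36556 to 130470, so medians were compared within a library, and levels between libraries are given with no test.

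**Figure D1:**
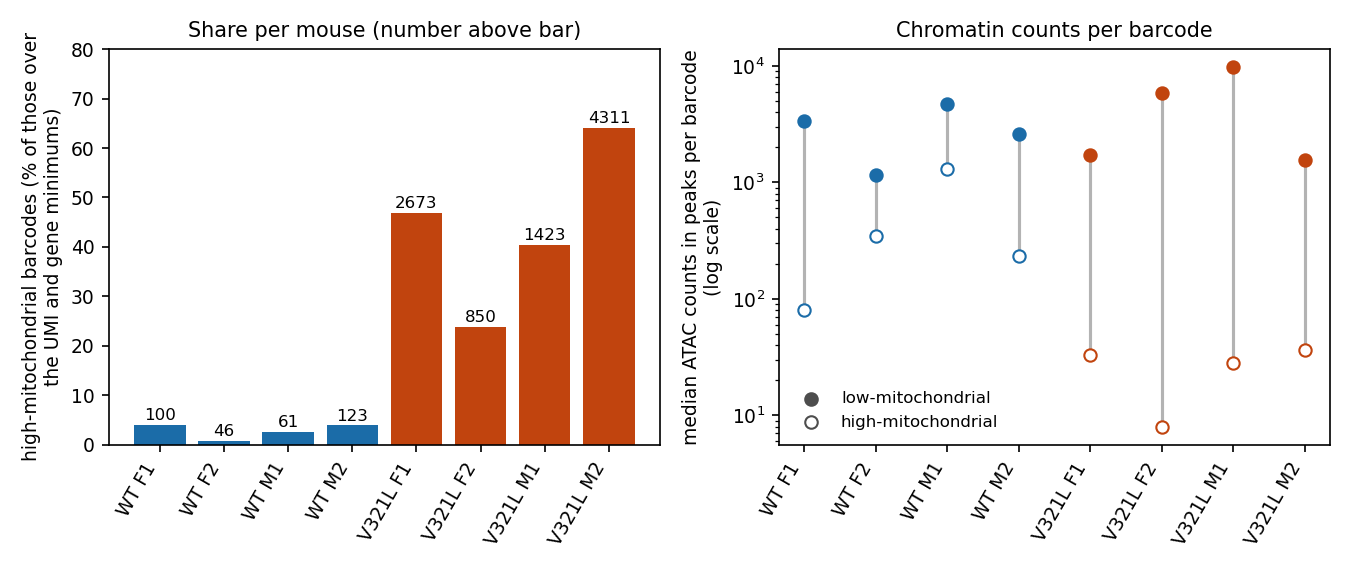
Share of high-mitochondrial barcodes per mouse (left, % of barcodes over the UMI and gene minimums) and median ATAC counts in peaks per barcode (right, log scale) in low-mitochondrial (filled) and high-mitochondrial (open) barcodes of the 4 WT and 4 V321L mice. The share is 0.788% to 4.00% in WT and 23.7% to 64.1% in V321L, and the open points lie below the filled ones in each mouse.

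The loss of ATAC counts was on average larger in V321L. The log2 ratio of high to low averaged −3.11 ± 1.70 in WT and −7.20 ± 1.97 in V321L (SD, n = 4 each), a difference of −4.09 (exact permutation test of the within-mouse ratios, p = 0.0286). By mouse the ratio was −5.37, −1.74, −1.85 and −3.47 in WT F1, F2, M1 and M2. In the corresponding V321L mice it was −5.66, −9.35, −8.39 and −5.40, so WT F1 lay next to V321L M2. The difference of −4.09 lost its call in several other settings. Per non-mitochondrial UMI it was −3.08, with a limit of 5% it was −3.03, and with a mouse left out it ranged from −4.85 to −3.37, lowest in size without V321L F2. The call was lost without WT F2, WT M1 or any of the 4 V321L mice (exact permutation test, p = 0.0571). Among barcodes with at least 500 ATAC counts, a limit on the compared quantity itself that narrows any difference in it, the value was −0.06.

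At least 500 ATAC counts, the minimum used here for a barcode with a nucleus, were found in 29 members of WT F1 (29.0%), 20 of F2 (43.5%), 41 of M1 (67.2%) and 55 of M2 (44.7%). In V321L they were found in 539 members of F1 (20.2%), 125 of F2 (14.7%), 258 of M1 (18.1%) and 688 of M2 (16.0%). The low-mitochondrial barcodes reached that level in 66.2% to 85.7% of cases, and the mean over 8 mice was 31.7% in members against 78.2% (exact sign-flip test, p = 0.00781). The mean was 17.2% ± 2.41 in V321L and 46.1% ± 15.8 in WT members (SD, n = 4 each). The same count was required in libraries with different peak sets, and the part of that in these shares, and in other values below that rest on a number of ATAC counts, was not tested. At the other end, under 50 ATAC counts were found in 37.0%, 26.1%, 9.84% and 38.2% of the members of the 4 WT mice and in 55.2%, 72.4%, 61.4% and 54.7% of those of the 4 V321L mice. The means were 27.8% ± 13.1 and 60.9% ± 8.21. Between 2.42% and 11.7% of low-mitochondrial barcodes had so few.

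Within the members, ATAC counts fell as the mitochondrial share rose. In V321L M2 the median was 429 at shares under 5%, 120.5 from 5% to 10%, 16 from 10% to 20% and 10 at 20% or more. In V321L F1 it was 666, 63.5, 14 and 6. In WT M2 it was 2697, 208, 24 and 24, the last over 3 barcodes. WT M1 differed in that the class from 5% to 10% was still at 1478, close to the 1502 of the class below it. From 10% to 20% its median was 96, over 4 barcodes. That class held 29, 4 and 32 barcodes in WT F1, F2 and M2. Members under 5% thus had medians of 343 to 2697 over the 8 mice, and members at 10% to 20% had 6 to 96.

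**Figure D2:**
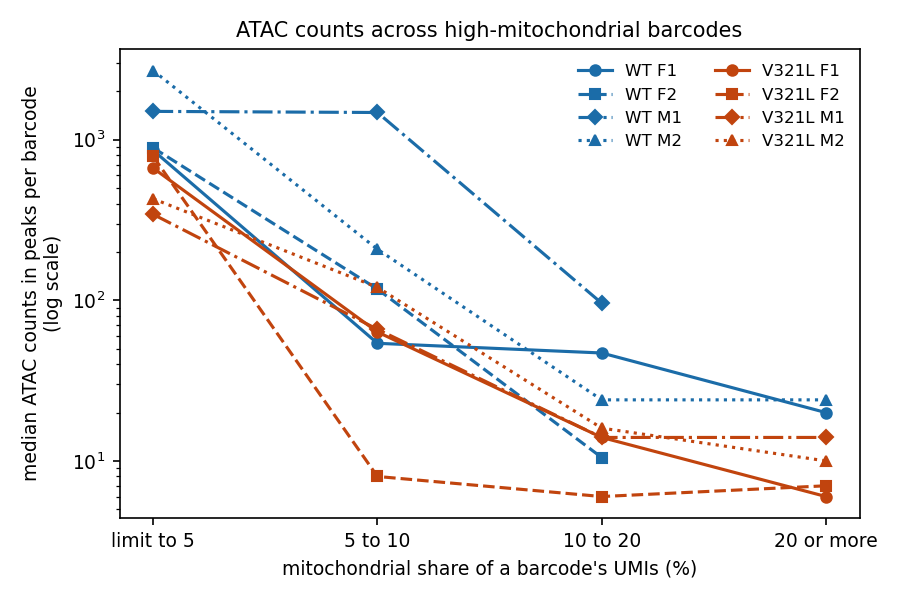
Median ATAC counts in peaks per barcode (log scale) in classes of mitochondrial share among high-mitochondrial barcodes, 1 line per mouse. Medians lie between 343 and 2697 below a share of 5% and between 6 and 96 from 10% to 20%.

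The ATAC counts that were present lay near genes to a slightly larger extent. Peaks within 1 kb of the transcription start interval listed for a gene held 55.4% ± 3.97 of the ATAC counts of members. In the other barcodes they held 52.8% ± 4.43 (SD, n = 8 mice), with the same direction in each mouse (exact sign-flip test, p = 0.00781). With a limit of 5% the difference was 1.45 percentage points and with more than 1000 UMIs it was 1.93, and neither passed the exact test (p = 0.438 and p = 0.156).

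The cell class of a barcode was read from 12 lists of marker genes, as the list with the most UMIs, with at least 3 UMIs and more than any other list. This names the leading markers and not a cell type. GC markers, which define the labelled region, led 59.4% ± 7.34 of the low-mitochondrial barcodes and 21.2% ± 10.8 of the members, lower in 8 of 8 mice (SD, n = 8, exact sign-flip test, adjusted p = 0.0254). They led 19.0%, 28.3%, 44.3% and 17.1% of the members of WT F1, F2, M1 and M2 and 15.5%, 12%, 21.4% and 11.8% in V321L. Astrocyte or radial glia markers led 60%, 50%, 22.95% and 65.9% of the WT members and 25.9%, 33.2%, 29.1% and 31.7% of the V321L members, against 3.52% to 9.28% of the other barcodes. Their mean was 39.8% ± 16.4 against 7.32% ± 1.77, above it in 8 of 8 mice (adjusted p = 0.0254 in the same exact test). Astrocytes support synapses and clear glutamate.

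Of the 13 outcomes, counting barcodes with no leading list as 1, 6 passed the two-sided exact sign-flip test with Benjamini-Hochberg adjustment. CA pyramidal markers led fewer members than other barcodes (2.02% against 12.6%, 8 of 8 mice, exact adjusted p = 0.0254), as did GABAergic interneuron markers (3.46% against 4.88%, 7 of 8 mice, exact adjusted p = 0.0339). Oligodendrocyte markers led more (9.998% against 4.53%, 7 of 8 mice, exact adjusted p = 0.0339), and so did no list at all (19.4% against 6.36%, 8 of 8 mice, exact adjusted p = 0.0254). A list leads only with at least 3 UMIs and members held fewer UMIs, so the unled share depends on depth. It is no result separate from the depth of the members. The counts of OPC, microglia, vascular, mossy, neuroblast, Cajal-Retzius and choroid plexus markers did not pass. Without WT F1, F2 or M1, or without V321L F1, M1 or M2, 0 outcomes passed and 6 to 8 did at an unadjusted p under 0.05, and without WT M2 or V321L F2, 5 passed, in an exact test whose smallest p is then 0.0156. With more than 1000 UMIs 3 passed. In members with at least 500 ATAC counts the GC share was still 27.2 percentage points lower and the astrocyte share 23.7 points higher than in low-mitochondrial barcodes with as many (exact sign-flip test, p = 0.00781 for each).

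In V321L members oligodendrocyte markers led 16.3% against 3.68% in WT members (exact permutation test, p = 0.0286). After adjustment over the 13 outcomes no difference between the genotypes passed (lowest adjusted p = 0.0743, with 5 of 13 at an unadjusted p under 0.05). These 5 were at the smallest p that 4 against 4 mice allow, and 5 of 13 at it cannot pass. The missing call therefore does not show an equal make-up. Read the other way, as the part of each class that crossed the limit, the genotypes were separate in all 7 classes with enough barcodes. Of the barcodes led by GC markers, 1.07% ± 0.586 crossed it in WT and 19.5% ± 9.69 in V321L (SD, n = 4 each). For oligodendrocyte markers it was 5.77% ± 4.75 and 62.3% ± 16.6, and for astrocyte markers 18.4% ± 11.1 and 72.0% ± 11.7. CA pyramidal (0.351% and 14.0%), GABAergic (1.44% and 37.4%), OPC (1.80% and 24.0%) and unled barcodes (5.67% and 75.8%) followed the same direction. Each of the 7 had an adjusted p of 0.0286 (exact permutation test). Among barcodes with at least 500 ATAC counts the parts were smaller, at 0.863% and 10.8% for GC, 5.43% and 31.2% for oligodendrocyte and 10.3% and 29.7% for astrocyte markers, and 0 of the 7 passed, with 3 at an unadjusted p under 0.05 (exact permutation test, adjusted p from 0.0667 to 0.0857). Without WT F1, F2 or M2, 4 of 7 passed, and without WT M1, when 9 classes could be tested, 0 passed and 4 did at an unadjusted p under 0.05.

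**Figure D3:**
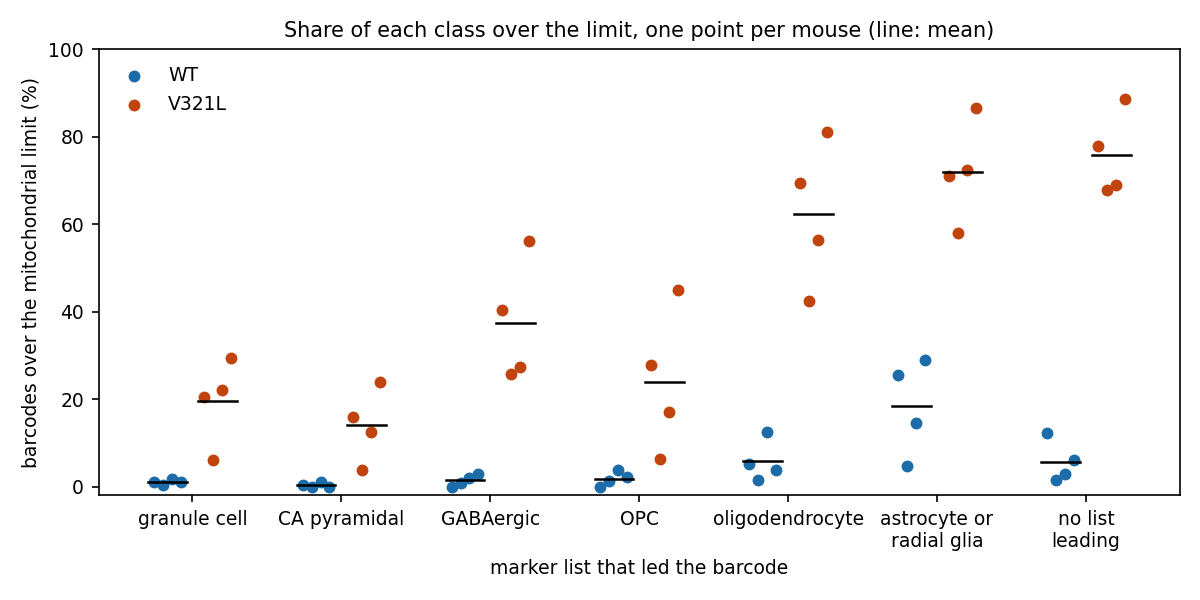
Barcodes over the mitochondrial limit (% of the barcodes led by each marker list), with 1 point per mouse and a bar at the mean of the 4 mice of a genotype. In GC-led barcodes the mean is 1.07% in WT and 19.5% in V321L, and in astrocyte-led barcodes 18.4% and 72.0%.

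The 13 mitochondrial genes encode subunits of the respiratory chain and of ATP synthase. Their shares of the mitochondrial UMIs were much alike in members and other barcodes of the same mouse, where 0 of 13 genes passed the exact sign-flip test after adjustment and 2 did at an unadjusted p under 0.05. mt-Nd1 (complex I) was lower in 8 of 8 mice by 1.31 percentage points (adjusted p = 0.102, unadjusted p = 0.00781 by the exact sign-flip test). That is the smallest p that 8 mice allow, so 1 gene of 13 could not pass alone. mt-Atp6 (ATP synthase) was higher in 6 of 8 mice (p = 0.0312, adjusted p = 0.203 in the same exact test).

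Between genotypes the make-up of the members differed in 10 of 13 genes (exact permutation test, adjusted p = 0.0371 for each), all but mt-Atp6, mt-Cytb and mt-Nd3. mt-Nd6 (complex I) made up 1.63%, 1.31%, 0.989% and 1.35% of the mitochondrial UMIs of the WT members and 0.059%, 0.061%, 0.060% and 0.053% of those of the V321L members. mt-Co3 (complex IV) made up 8.67%, 8.89%, 11.1% and 9.06% in WT and 22.1%, 21.4%, 21.2% and 21.0% in V321L. Neither gene overlapped between genotypes. mt-Nd5 (5.63% against 1.02%), mt-Co1 (13.7% against 7.06%), mt-Nd4 (13.2% against 7.24%), mt-Nd4l (1.43% against 0.276%), mt-Atp8 (0.530% against 0.060%) and mt-Nd2 (7.29% against 6.37%) had lower means in V321L members, and mt-Nd1 (7.42% against 10.7%) and mt-Co2 (11.1% against 15.2%) higher ones. The difference was not confined to members, since 12 of 13 genes passed in the low-mitochondrial barcodes (exact permutation test, adjusted p = 0.031). Several of these genes lie next to or over each other on the circular genome, where reads can be counted to either.

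**Figure D4:**
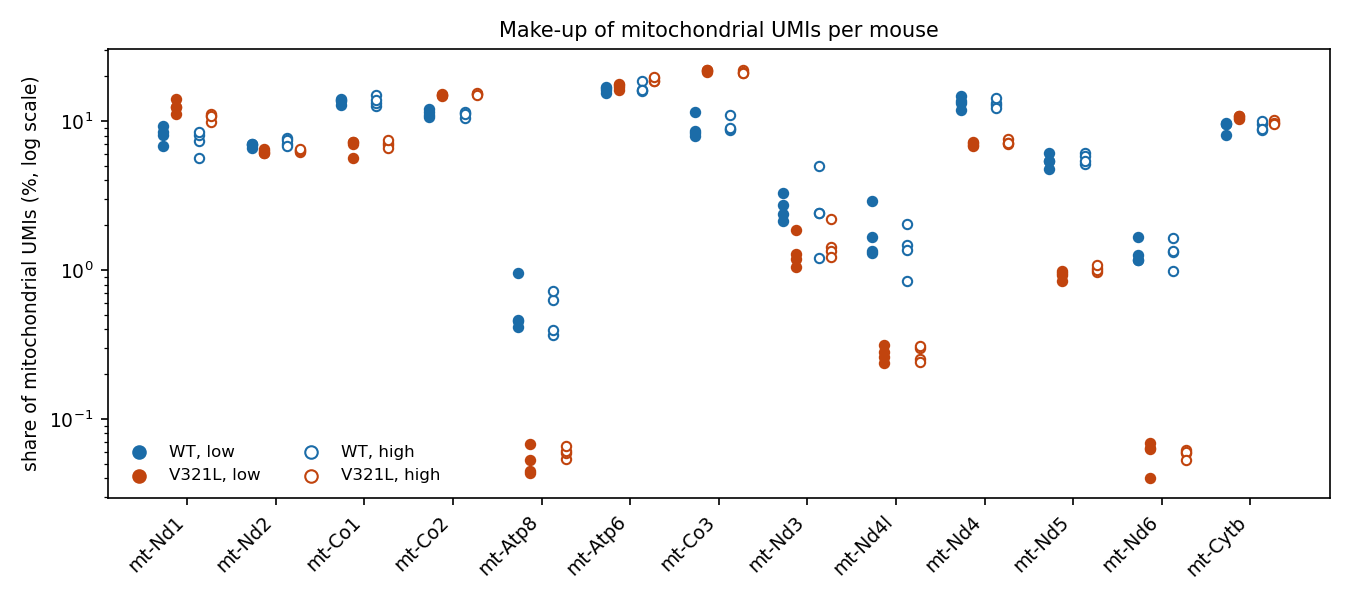
Share of the mitochondrial UMIs held by each of the 13 mitochondrial genes (%, log scale) in low-mitochondrial (filled) and high-mitochondrial (open) barcodes of each mouse. mt-Nd6 lies near 1.32% in WT and 0.058% in V321L members, and high and low barcodes of a genotype lie close together.

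Outside the mitochondrial genes, counts were summed per mouse and kind of barcode and compared within mice (edgeR quasi-likelihood test with mouse as a block, 14463 genes tested). At an adjusted p under 0.05, 5407 genes were higher (37.4%) and 4615 lower (31.9%) in the members, and the median log2 change was 0.04. Scaled by DESeq2 size factors the numbers were 6023 and 3748 with a median of 0.17, and DESeq2 itself gave 5297 and 2901. In WT alone 1280 genes were higher (8.85%) and 2277 lower (15.7%), and in V321L alone 5473 were higher (37.8%) and 4354 lower (30.1%). Levels below are CPM, counts scaled to the sum of UMIs outside the mitochondrial genes, and changes are log2 with their standard error.

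Of the 10 genes with the largest rise in all 8 mice, Ndrg2, a gene of astrocytes, was at 206, 219, 137 and 283 CPM in the WT members and at 414, 713, 433 and 534 CPM in the V321L members. The low-mitochondrial barcodes had 7.19 to 9.98 CPM in WT and 21.0 to 59.99 CPM in V321L, below the members in every mouse. The change was 3.92 ± 0.17, a 15.2-fold rise (edgeR, adjusted p = 4.87e-36). Free RNA held 235 to 338 CPM in WT and 501.4 to 802 CPM in V321L, more than the members in 6 mice.

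Gfap, the intermediate filament of astrocytes, was at 141, 27.3, 51.4 and 158 CPM in the WT members and at 134, 259, 115 and 173 CPM in the V321L members, against 2.57 to 7.86 and 5.85 to 20.6 in the other barcodes (log2 change 3.78 ± 0.16). Aldoc, the astrocyte form of the glycolytic aldolase, changed by 3.62 ± 0.18, S100b, a glial calcium-binding protein, by 3.60 ± 0.15, Glul, which makes glutamine from glutamate, by 3.48 ± 0.17, and Apoe, the lipid carrier of the brain, by 3.33 ± 0.17. Gstm1, a glutathione transferase, changed by 3.33 ± 0.16, and the metallothioneins Mt1 and Mt2 by 3.37 ± 0.19 and 3.54 ± 0.15. Ddn, whose messenger RNA is carried into dendrites, was at 273 to 1062 CPM in WT and 428 to 647 in V321L members (log2 change 3.57 ± 0.16). All 10 were higher in 8 of 8 mice, as their selection required. Among barcodes led by GC markers the rise was smaller and still called, at 2.17 ± 0.15 for Ndrg2, 2.32 ± 0.14 for Glul and 1.89 ± 0.15 for Ddn (edgeR, adjusted p under 0.05).

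Of the 10 genes with the largest fall in all 8 mice, Kcnq5, a potassium channel of neurons, was at 46.9, 109, 171 and 116 CPM in the WT members and 202, 94.3, 385 and 242 CPM in the V321L members, against 916 to 1078 and 533 to 871 in the other barcodes. The ranges of members and other barcodes did not meet (log2 change −2.27 ± 0.19, edgeR, adjusted p = 1.09e-18). Cntnap2, an adhesion protein of axons, changed by −1.98 ± 0.17, Chrm3, a muscarinic receptor, by −2.02 ± 0.18, Mgat4c, a glycosyltransferase, by −2.05 ± 0.18 and Hs6st3, a heparan sulfate sulfotransferase, by −1.83 ± 0.17. The long noncoding RNAs Meg3 and Snhg11, which stay in the nucleus, changed by −1.87 ± 0.17 and −1.86 ± 0.16, and the unnamed transcripts Gm32647, Gm49678 and Gm10754 by −2.41 ± 0.19, −2.11 ± 0.18 and −1.88 ± 0.20. All 10 were lower in 8 of 8 mice, as their selection required.

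Gene lists moved along the same division. Of 81 ribosomal protein genes tested, whose short and stable messenger RNAs are translated in the cytoplasm, 80 were higher in the members and 0 lower (median log2 change 2.47 against 0.04 over all genes). Many of them have near-identical pseudogenes, so single members are uncertain. Of 82 nuclear-encoded OXPHOS genes, which complete the respiratory complexes, 79 were higher and 0 lower (median 1.89). Translation factors (14 of 14 higher, median 1.81), glycolytic enzymes (16 of 16, median 1.62) and cytoskeleton and calmodulin genes (20 of 20, median 2.03) rose as well. Of 18 messenger RNAs known from dendrites 13 were higher and 1 lower (median 1.33), and of 16 presynaptic genes 12 were higher and 1 lower (median 0.64). Of 24 genes for mitochondrial import, genome upkeep and dynamics 17 were higher and 1 lower (median 1.22). Over all genes tested 37.4% were higher and 31.9% lower. In the WT mice alone, 71 of 81 ribosomal protein, 34 of 82 OXPHOS, 7 of 16 presynaptic and 6 of 24 import genes were higher. There 0, 1, 3 and 1 were lower, beside 8.85% of all genes higher and 15.7% lower.

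On the other side, 25 of 25 long neuronal genes were lower (median −1.39) and, of 14 RNAs kept in the nucleus, 11 were lower and 3 higher (median −1.32). Malat1, a long noncoding RNA of nuclear speckles, was at 4440 to 9215 CPM in WT and 14459 to 26845 CPM in V321L members, against 8677 to 11076 and 40988 to 51620 in the others (log2 change −1.25 ± 0.15, lower in 7 of 8 mice). Gm42418, whose sequence overlaps ribosomal RNA, went the other way, at 40688 to 72860 CPM against 3924 to 9822 in WT and 756 to 955 against 255 to 348 in V321L (log2 change 2.07 ± 0.17). These directions held with library-size scaling and with DESeq2 size factors, where the medians were 2.47 and 2.62 for ribosomal protein and −1.15 and −1.13 for long neuronal genes. They also held in barcodes led by GC markers (medians 1.26 and −0.80, where 20.6% of all genes were higher and 13.8% lower) and in barcodes with at least 500 ATAC counts (medians 1.38 and −1.11, where 22.8% were higher and 20.3% lower).

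The markers of glia and vessels rose as lists, with 9 of 10 astrocyte, 9 of 10 oligodendrocyte, 10 of 10 microglia and 11 of 11 vascular markers higher (medians 2.02, 1.33, 1.36 and 1.76). Over all genes tested 37.4% were higher and 31.9% lower. In the WT mice alone 9 of 10 astrocyte, 6 of 10 oligodendrocyte, 2 of 10 microglia and 3 of 11 vascular markers were higher. There 1, 1, 0 and 0 were lower, beside 8.85% of all genes higher and 15.7% lower. Of 11 GC markers 3 were higher and 6 lower (median −0.82). The other neuronal lists were mixed, with 6 higher and 5 lower of 12 CA pyramidal markers and 6 higher and 4 lower of 11 GABAergic ones. Lists this short and mixed cannot be set apart from the shares over all genes. In WT alone 0 of 11 GC markers were higher and 6 lower. For CA pyramidal markers it was 0 and 4 of 12, and for GABAergic ones 1 and 4 of 11. What part the change of cell class has in the gene changes was not tested as such, and the values in GC-led barcodes stand above.

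Levels were graded between nuclei and free RNA. Ribosomal protein genes summed to 492 to 1162 CPM in low-mitochondrial barcodes, 4813 to 7609 in members and 8680 to 15773 in free RNA of the WT libraries. In V321L the sums were 8116 to 17472, 51895 to 67656 and 120030 to 140902 CPM. Members with under 50 ATAC counts came closest to free RNA, with 94649 to 101739 CPM in V321L, and members with at least 500 stood nearer to the others, with 23213 to 35398. Long neuronal genes ran in the opposite order, from 69465 to 87135 CPM over 24266 to 48600 in members to 5492 to 8585 in free RNA in V321L, and from 113084 to 134650 over 53107 to 85067 to 29779 to 41579 in WT. Members thus lay between the other barcodes and free RNA for both lists in each of the 8 mice. How much of their RNA was free RNA was not tested.

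**Figure D5:**
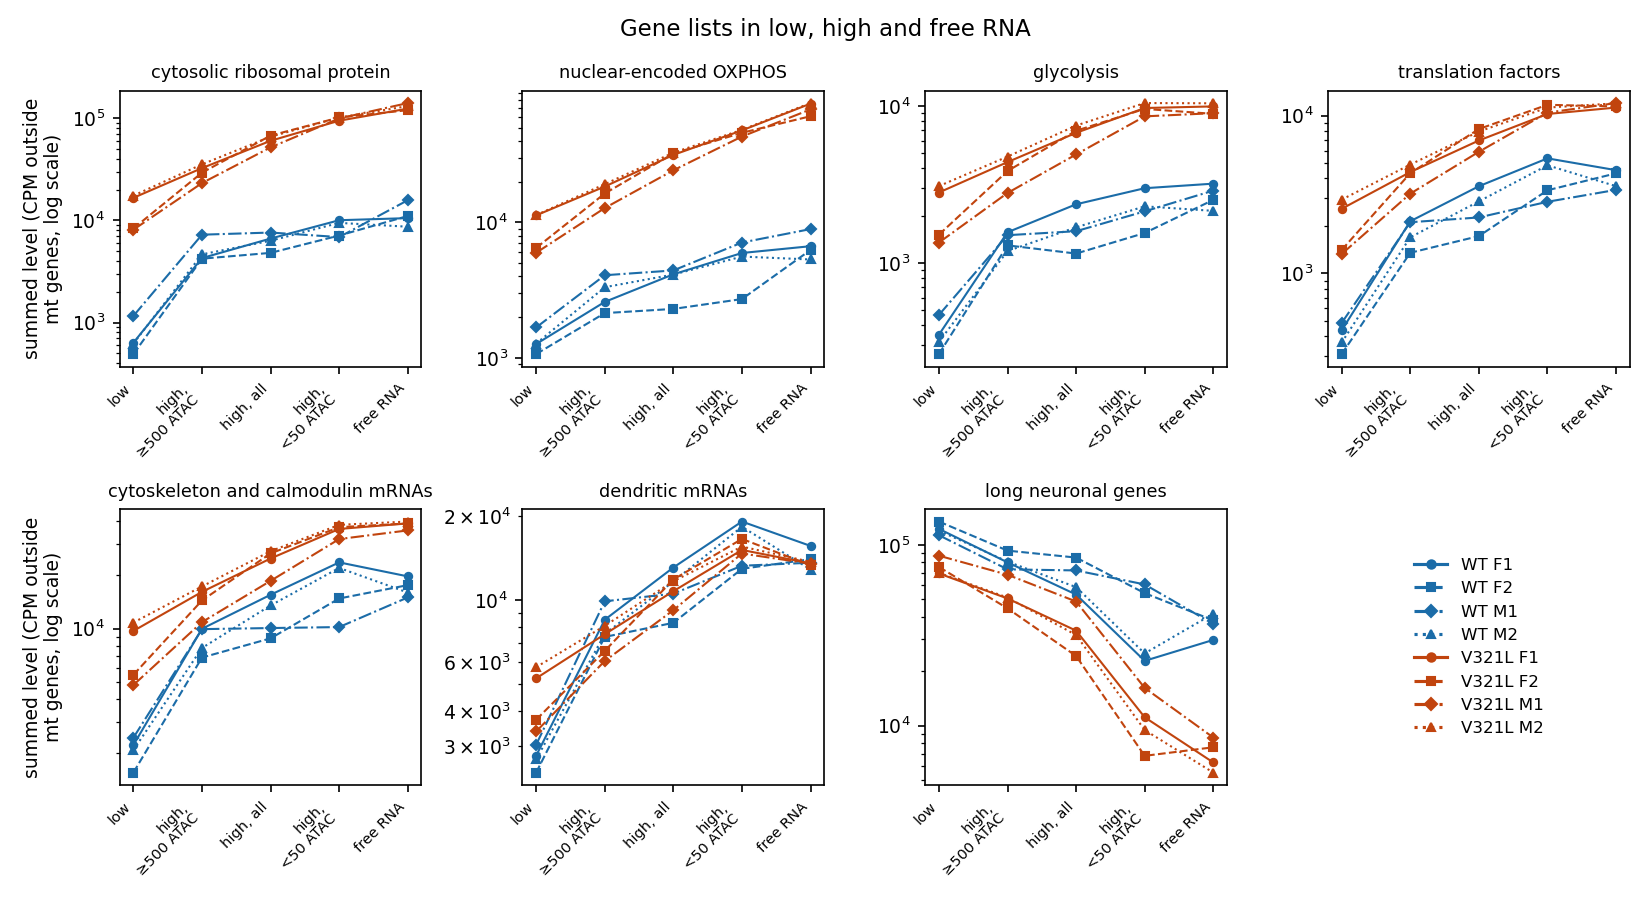
Summed level (CPM outside the mitochondrial genes, log scale) of gene lists in low-mitochondrial barcodes, in members with at least 500 ATAC counts, in all members, in members with under 50 ATAC counts and in free RNA, 1 line per mouse. Ribosomal protein genes climb from 8116 to 17472 to 120030 to 140902 CPM in V321L, and long neuronal genes drop.

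Gene length followed the same order. Genes spanning more than 100 kb, which give much of the intron-containing RNA of nuclei, held 45.8% to 58.1% of the non-mitochondrial UMIs of the WT members and 25.5% to 35.7% of those of the V321L members. In low-mitochondrial barcodes it was 66.7% to 72.2% and 46.1% to 52.6%, and in free RNA 35.8% to 41.6% and 10.6% to 13.2%. Genes under 10 kb held 6.73% to 10.4% of the UMIs in WT and 25.6% to 32.7% in V321L members, against 2.60% to 4.21% and 13.004% to 17.4% in the others. As a description across genes, which are not independent replicates, Spearman's rho between members and free RNA of the same V321L library was 0.772 to 0.864, and 0.917 to 0.942 for members with under 50 ATAC counts. It was 0.406 to 0.531 for the V321L low-mitochondrial barcodes. In WT F1, F2, M1 and M2 it was 0.779, 0.584, 0.675 and 0.786 for members. The low-mitochondrial barcodes of these mice had 0.608, 0.603, 0.661 and 0.673, so members lay below them in WT F2 alone. WT members with under 50 ATAC counts had 0.291 to 0.588, not above all members as in V321L. They held 4221 to 35731 UMIs per mouse, the fewest in the 6 barcodes of WT M1, and the part of this low depth in their values was not tested.

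The members of V321L and WT mice were then compared with each other, over 8231 genes that could be tested (edgeR, adjusted p under 0.05). There were 1915 genes higher (23.3%) and 1338 lower (16.3%) in V321L, with a median log2 change of 0.14. With DESeq2 size factors there were 2351 and 900 with a median of 0.37. Without V321L F1, F2, M1 or M2, when only 3038, 3039, 3150 and 3057 genes were tested, 934, 874, 1095 and 856 genes were higher and 533, 783, 935 and 725 lower. Without WT F1, M1 or M2, 10457, 10370 and 10435 genes were tested. There 2253, 2593 and 1674 were higher and 649, 776 and 779 lower, with median log2 changes of 0.53, 0.54 and 0.35. Without WT F2 it was 1850 and 1203 of 10456, with a median of 0.22. The same comparison in the low-mitochondrial barcodes gave 5898 of 15190 genes higher (38.8%) and 4708 lower (31.0%), and 8138 and 2495 when scaled by library size. Differences between genotypes were therefore not confined to members.

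Ribosomal protein genes were higher in V321L members in 81 of 81 cases, with a median log2 change of 3.46. In low-mitochondrial barcodes it was also 81 of 81, with a median of 3.95. OXPHOS genes were higher in 77 of 78 cases tested (median 3.19) in members and in 76 of 79 (median 2.93) in the others. The count in members includes Ndufb7, which was not seen in WT members. It passed the filter on low counts through the V321L members alone, and so may other genes of these lists. Cox4i1, a subunit of complex IV, was at 178, 82.0, 171 and 158 CPM in the WT members and at 1857, 1984, 1477 and 2010 CPM in the V321L members, without overlap (log2 change 3.504 ± 0.305, edgeR). Glycolytic enzymes (14 of 16 higher, median 1.64), cytoskeleton and calmodulin genes (16 higher and 1 lower of 20, median 1.81), translation factors (11 of 14, median 1.33) and mitochondrial import genes (16 higher and 1 lower of 22, median 1.88) shared this direction. Free RNA differed the same way, with 5327 to 8935 CPM for OXPHOS genes in WT and 60943 to 76262 CPM in V321L libraries.

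Long neuronal genes were lower in 18 of 25 cases (median −0.86), against 23 of 25 in the low-mitochondrial barcodes (median −1.17). The dendritic messenger RNAs split, with 5 higher and 5 lower of 17 (median −0.23, and 0.00 with DESeq2 size factors). Over all genes tested in members 23.3% were higher and 16.3% lower. Camk2a, the kinase of the postsynaptic density, was lower in V321L members, at 1332, 1717, 1322 and 1380 CPM against 2722, 1531, 2519 and 2469 CPM (log2 change −0.74 ± 0.25, edgeR, adjusted p = 0.0175). Of 10 astrocyte markers 7 were lower and 2 higher (median −1.34), where the low-mitochondrial barcodes had 3 lower and 2 higher (median −0.33). In those low-mitochondrial barcodes 31.0% of all genes tested were lower and 38.8% higher.

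The genes with the largest rise in V321L members were not seen at all in WT members, so that only a lower bound of the fold is given, against a floor of 3 counts over the 4 WT mice (9.32 CPM). Ndufb7, a subunit of complex I, was at 0 CPM in the 4 WT mice and at 261, 246, 177 and 248 CPM in the V321L mice, at least 25.0-fold higher. Cox14, an assembly factor of complex IV, was at 105 to 197 CPM and at least 16.99-fold higher, and Gm1673 at least 17.2-fold higher. For Rprml, Lin7b, Polr2e, Mrps34, Tmsb10 and Mrps12 the bounds were 12.6, 10.8, 9.28, 8.78, 8.71 and 7.93. These genes are among 107 tested genes at 0 in the WT members, which held 321776 UMIs in all. All 107 passed the filter on low counts through the V321L members alone. Those called are part of the 1915 higher genes and, where they belong to a list, of the list counts above. In WT free RNA Ndufb7 was present at 5.55 to 23.5 CPM, against 442 to 630.4 in V321L.

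The largest fall in V321L was that of Gm10800 (−6.51 ± 0.78). Gm42418 and AY036118, both overlapping ribosomal RNA sequence, followed with −6.18 ± 0.38 and −4.83 ± 0.33. AY036118 was at 22564, 12360, 17171 and 17388 CPM in the WT members and 556, 748, 496 and 711 CPM in the V321L members. Nfkb2, a subunit of NF-kB, was at 432, 219, 291 and 391 CPM in WT and 15.1, 16.7, 16.5 and 10.6 CPM in V321L members (−4.71 ± 0.26). The genes named here were picked for no overlap between genotypes, so their separation is no result of its own. Of the 8231 genes tested, 1780 higher and 830 lower ones met that rule. Cdr1 (−5.02 ± 0.44), Ccdc152 (−4.99 ± 0.40), Gm20721 (−4.50 ± 0.35), Gm15713 (−4.48 ± 0.72), B020010K11Rik (−4.30 ± 0.61) and Chn1os1 (−4.01 ± 0.51) completed the list. Ribosomal-RNA-like and antisense transcripts can share reads with other loci and are uncertain. Nfkb2 was also lower in V321L low-mitochondrial barcodes (−2.92 ± 0.31).

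Genes that the study used for its nuclei behaved unevenly. Prox1, the transcription factor of GCs, was at 347, 273, 308 and 241 CPM in WT and 160.1, 176, 179.6 and 149 CPM in V321L members, and high- and low-mitochondrial barcodes did not differ past the threshold (log2 change 0.18 ± 0.14, edgeR, adjusted p = 0.249). Between genotypes it was lower in V321L members (−0.86 ± 0.24, edgeR, adjusted p = 0.00326) as in the other barcodes (−0.80 ± 0.11). The call in members was lost without WT F1 (−0.44), WT M1 (−0.55) or V321L F1 (−0.57), with more than 1000 UMIs, with at least 500 ATAC counts and among GC-led barcodes, where the change was −0.097. With under 50 ATAC counts (−0.43) and with no filter on low counts (−0.55) it was lost as well. Nrg1, which carries the substitution, was lower in members than in the other barcodes in 8 of 8 mice (−1.47 ± 0.15), and lower in V321L than in WT members (−0.99 ± 0.30, edgeR, adjusted p = 0.00824). This call was lost on leaving out any mouse but WT M2 or V321L M1, with changes of −0.86 to −0.68, and with a limit of 5% (−0.53). It was also lost with at least 500 ATAC counts (−0.53), with under 50 ATAC counts (−1.48) and with DESeq2 (−0.89). The substitution changes an amino acid, so the level of Nrg1 RNA does not check the genotype.

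Penk, the enkephalin precursor, was at 28.2, 0, 51.4 and 24.9 CPM in the WT members and 22.9, 29.5, 17.4 and 18.3 CPM in the V321L members. The genotypes overlapped and did not differ past the threshold (−0.47 ± 0.56, edgeR, adjusted p = 0.531), and the sign turned without WT M1 (0.14). The WT levels rest on very few Penk UMIs, since WT members held 36571 to 120313 UMIs per mouse outside the mitochondrial genes. The missing call therefore does not show equal levels. In low-mitochondrial barcodes Penk was higher in V321L (1.58 ± 0.26, edgeR, adjusted p = 0.000259). Sorcs3 (−0.80 ± 0.14), Camk4 (−0.86 ± 0.15) and Ntng1 (−1.05 ± 0.15), the other GC genes of the study, were lower in members than in the other barcodes. None of the 3 passed between genotypes in members (edgeR, adjusted p = 0.199, 0.413 and 0.224). With a limit of 5%, Ntng1 was higher in V321L members (1.33, edgeR, adjusted p = 0.035). Of 12 genes that the study tied to semilunar granule cells, a list it drew from these same samples and so no independent evidence, 6 were higher and 2 lower in members (median 0.47), beside 37.4% and 31.9% of all genes tested.

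Whether members differed from other barcodes to another extent in V321L than in WT was tested as an interaction (edgeR). At an adjusted p under 0.05, 227 genes (1.57%) had a more positive and 78 (0.539%) a more negative change in V321L. This split depended on the scaling, with 23 and 658 genes by library size and 51 and 194 by DESeq2 size factors. It also depended on single libraries. Leaving out a mouse gave between 32 (without WT M2) and 571 (without V321L F2) genes in the positive and between 11 (without WT M2) and 190 (without V321L F2) in the negative direction, and the positive number moved by more than 1.5 times for each of the 8. No direction is therefore given for gene groups in this comparison.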

How the data were processed

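Counts of RNA UMIs and of ATAC fragments in peaks were used as deposited by the authors, unnormalized, for all barcodes of 8 libraries (1 per mouse). They were made with Cell Ranger ARC 2.0.2 per the file headers, and the submitters' processing notes name mm10, Cell Ranger, Seurat and Signac. Fragment files were not used here. The members and gene lists were chosen with earlier results of these data known.

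Barcodes with more than 500 UMIs and 250 genes were divided at a mitochondrial share of 2.787%. Sums of counts per mouse went into edgeR 4.0.16 (R 4.3.3, limma 3.58.1), whose quasi-likelihood test was run with TMM scaling, its filter on low counts, library sizes without the 13 mitochondrial genes and Benjamini-Hochberg adjustment at 0.05. High and low barcodes were compared with mouse as a block. Values per mouse were compared by two-sided exact permutation or sign-flip tests, with Benjamini-Hochberg adjustment within a family. The labels number the mice within sex and genotype and name them as separate samples. Free RNA was read from barcodes with at most 100 UMIs. Equal depth was set by random thinning to 500 UMIs (seed 1). Gene spans came from the RefSeq annotation of GRCm38.p6, matched by name for 98.1% of UMIs. Transcription starts came from the deposited feature lists, as the interval listed for each gene with 1 kb on each side.

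Named genes were those of the lists, the study's single-nucleus genes, and those with the largest changes at a mean of at least 10 CPM and an adjusted p under 0.05: 10 each way with the same direction in each mouse (high against low), 10 each way without overlap (V321L against WT) and 5 each way for the interaction. A gene that met this rule is not reported here. Cox4i1, Camk2a and Malat1 are list genes picked as examples after their values were seen. Alternatives were limits of 2% and 5%, the study's upper limits (8916.1 UMIs and 3307.526 genes), more than 1000 UMIs, at least 500 ATAC counts, barcodes led by GC markers, low barcodes matched on UMIs, thinning, other scalings, no filter, DESeq2 1.42.0, blocks, sex and leaving out each mouse. The use of barcodes with under 50 ATAC counts, and some of the others for single results, were added after seeing the data. The procedures were tested on simulated data. Other steps used Python 3.11.15, numpy 2.4.6, scipy 1.17.1, pandas 2.3.3 and matplotlib 3.10.9.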

Additional observations from a re-analysis of the deposited data

Results flagged for a closer look

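The loss of ATAC counts from low- to high-mitochondrial barcodes differed between the genotypes by −4.09 on the log2 scale, on average larger in V321L (exact permutation test, p = 0.0286). WT F1 (−5.37) lay next to V321L M2 (−5.40), and the call was lost on leaving out any mouse but WT F1 or WT M2. The median mitochondrial share of the high-mitochondrial barcodes moved with the loss of ATAC counts, at 3.97% to 8.20% in WT and 11.4% to 17.6% in V321L. Its part in the difference was not tested.

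In the members of WT F2, mt-Atp6 made up 18.7% of the mitochondrial UMIs, far from the 16.1% to 16.2% of the other WT mice, and in those of WT M1 mt-Co3 made up 11.1%, far from 8.67% to 9.06%. The test for a distant sample was run on 50 groups and marked 2, where chance marks about 1 in 20.

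Genes whose change from low- to high-mitochondrial barcodes differed most between genotypes (edgeR interaction, adjusted p under 0.05) were Rtn2, Cox14, Otulinl, Atg9a and Cbwd1 in the positive direction, with fitted differences of 10.19, 10.05, 9.85, 9.84 and 9.83 on the log2 scale. All 5 were at 0 in the WT members, so these fits depend on the prior count and are no bound. The V321L members had means of 62.0, 158.4, 44.1, 47.9 and 30.9 CPM, and the WT low-mitochondrial barcodes 6.76, 6.17, 21.1, 12.5 and 26.5 CPM, next to a floor of 9.32 CPM in the WT members. In the negative direction they were Gm47512 (−2.60), Gm26759 (−2.42), Gm49164 (−2.42), Gm4409 (−2.30) and Cdr1 (−2.19). For Cdr1 the WT mean was 108.6 CPM in members and 11.2 CPM in low-mitochondrial barcodes, and the V321L means were 4.27 and 2.64 CPM. Leaving out 1 mouse at a time ended the call at least once for each of these 10 genes.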

How the results depend on the processing

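Over all alternatives, 223 values of the main comparisons kept their direction and their side of the threshold or stayed within 1.5 times the count, 18 lost the threshold and 71 counts of genes or classes moved further. Among the named genes and led class shares, 1203 values kept their direction and their side of the threshold. A further 107 lost the threshold, 7 gained it and 12 changed sign. Depth limits the WT members most, which held 321776 UMIs outside the mitochondrial genes over 4 mice. Apart from the settings whose construction shows it (fewer barcodes, genes or mice), the cause of a change was not tested.

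With the replicate block, the share of high-mitochondrial barcodes still differed by 40.95 percentage points (exact test on 4 pairs, p = 0.125, the smallest they allow), and V321L against WT in members gave 1774 genes higher and 1177 lower. Same-numbered mice did not deviate together in members (r = 0.03, −0.05, 0.03 and 0.09 over genes for F1, F2, M1 and M2), where WT sums were small. In low-mitochondrial barcodes r was 0.24, 0.42, −0.19 and 0.08, and other pairs of a WT and a V321L mouse ran from −0.53 to 0.41. With no common sign, the numbers were not taken to pair the mice. The replicate block moved none of the counts of genes between genotypes by over 1.5 times. Without each mouse in turn this share difference ranged from 34.2 to 47.6 points, the genotype difference in the log2 ATAC ratio from −4.85 to −3.37, the class outcomes that passed from 0 to 5 and the classes over the limit that passed from 0 to 7. The interaction ranged from 32 to 571 genes with a more positive and 11 to 190 with a more negative change, and V321L against WT in members from 856 to 2593 higher and 533 to 1203 lower.

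At a limit of 5%, peaks near starts differed by 1.45 points, genes at equal depth by 5.25 and the ATAC ratio by −3.03. The interaction gave 913 and 42 of 13915 genes, and 476 of 6386 were lower in V321L members. With more than 1000 UMIs peaks near starts differed by 1.93 points and 3 class outcomes passed. There the interaction gave 28 negative genes of 13645, and 782 of 6965 were lower in V321L members. With the study's upper limits the ATAC ratio differed by −4.04, and per UMI by −3.08.

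With at least 500 ATAC counts the ATAC ratio differed by −0.057 and 0 classes over the limit passed. Of 13058 genes tested there, 2974 were higher and 2645 lower in members, and the interaction gave 718 positive. V321L members had 725 higher and 382 lower of 4841. In GC-led barcodes it was 2352 and 1581 of 11443, with 466 and 32 in the interaction, and 732 and 363 of 3119. Low barcodes matched on UMIs gave 3609 genes higher and 2982 lower of 9399. Members with under 50 ATAC counts gave 515 and 33 of 14463 in the interaction and 339 of 7191 lower in V321L. WT M1 had too few such members and was left out. Thinning gave 18 negative genes of 11479 in the interaction. There 1241 were higher and 747 lower of 4080 in V321L members, and 3648 of 10575 higher in V321L low-mitochondrial barcodes. The main fits tested 14463 genes between kinds of barcode and 8231 between genotypes in members, so these counts do not compare without their totals.

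Library-size scaling gave 23 and 658 in the interaction and 2495 genes lower in V321L low-mitochondrial barcodes. DESeq2 size factors gave 51 and 194 in the interaction, and no block for mouse gave 74 and 17. DESeq2 gave 22 and 122 of 8014 in the interaction, and 2901 genes lower in members than in other barcodes. With no filter 36 of 27055 genes were positive in the interaction, and 829 of 21788 were lower in V321L members.

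The sign turned for 4 of the study's genes. Between genotypes in members, Camk4 was at 0.21 and Ntng1 at 1.33 with a limit of 5%, and at 0.17 and 1.18 with under 50 ATAC counts. Of these, Ntng1 at a limit of 5% passed the threshold (edgeR, adjusted p = 0.035). Penk was at 0.14 with a limit of 2%, and leaving out 1 mouse at a time gave −0.62 (without WT F2) to 0.14 (without WT M1). Between members and other barcodes Penk was at −0.048 with more than 1000 UMIs, −0.086 in GC-led barcodes and −0.030 against matched barcodes. With at least 500 ATAC counts it was at −0.50, past the threshold (edgeR, adjusted p = 0.038). Prox1 was at −0.011 with a limit of 5% and −0.29 with under 50 ATAC counts.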

Other observations

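Stress and activity genes also differed between high- and low-mitochondrial barcodes of the same mouse (edgeR, adjusted p under 0.05), where 37.4% of all genes tested were higher and 31.9% lower. Of 15 heat shock and unfolded protein genes 14 were higher in the high-mitochondrial barcodes and 0 lower (median log2 change 1.38). Hspa8, a constitutive chaperone, was at 1474, 793, 617 and 1272 CPM in WT and 1546, 1447, 1222 and 1611 CPM in V321L high-mitochondrial barcodes, against 92.0 to 161 and 271 to 680.1 CPM in the low ones. Of 13 genes of the integrated and mitochondrial stress responses 12 were higher and 1 lower (median 1.19), but in the WT mice alone 2 were higher and 0 lower (median −0.32, beside 8.85% and 15.7% of all genes). There 11 were not called, with fits down to −6.32. Atf4, the transcription factor of that response, was at 44.9, 56.0, 25.6 and 46.4 CPM in V321L high-mitochondrial barcodes and was seen in only 1 WT mouse, at 8.31 CPM. That value lies below the floor of 9.32 CPM set for the WT members.

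Of 17 immediate early genes 12 were higher and 3 lower (median 0.93), but with at least 500 ATAC counts 3 of the 15 tested were higher and 3 lower (median −0.01), close to the 22.8% and 20.3% of all genes. Fos was at 5.12, 6.88, 5.64 and 10.8 CPM in V321L high-mitochondrial barcodes and was found in WT M2 alone among the WT mice, while Npas4, at 0 CPM in the 4 WT mice, was lower in high- than in low-mitochondrial barcodes (−0.70 ± 0.25). The V321L levels of Fos lay near the floor of 9.32 CPM set for the WT members. A value of 0 in WT members, which held 321776 UMIs in all, cannot be told from a low level. Of 8 neuroblast markers 6 were higher and 1 lower, of 8 OPC markers 4 and 1, of 5 mossy cell markers 3 and 1, of 5 Cajal-Retzius markers 1 and 0, and of 3 choroid plexus or ependymal markers 3 and 0. Over all genes tested in that comparison 37.4% were higher and 31.9% lower, and lists this short cannot be set apart from those shares. Ttr, the defining choroid plexus gene, was at 0 CPM in 3 WT mice and at 6.51 to 56.0 CPM in V321L. Of 3 red blood cell genes tested 2 were higher and 1 lower, and the summed level of the 5 on the list was highest in V321L F1, at 77.4 CPM against 0 to 54.7 CPM in the other 7 mice. Fos, Npas4, Hspa8, Atf4 and Ttr are members of their lists chosen after their values were seen.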
